A study of Mus musculus with 4 samples.

Results

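Insulin-like growth factors act outside the cell, and this account follows their axis of ligands, receptors and binding proteins in 4 clonal tumor lines. Its 10 members are Igf1, Igf2, Igf1r, Igf2r, Igfbp2, Igfbp3, Igfbp4, Igfbp5, Igfbp6 and Igfbp7, taken as the probe sets annotated to these genes. Each gene had 1 probe set, which gave 10 of the 23410 probe sets that carry a gene symbol. They were derived from a mammary tumor that arose in an FVB Tg MMTV/neu female, in which the mammary-specific MMTV promoter drives the rat neu oncogene. M1 and M2 are mesenchymal-like clones grown from cells with low neu and low CD24, in MEGM with a little serum, bovine pituitary extract, epidermal growth factor, insulin and hydrocortisone. E1 and E2 are epithelial clones grown from cells with high neu and high CD24, in serum-rich RPMI. Each line is a clone obtained by limiting dilution and was measured once, on a mouse gene array of Affymetrix. All 4 lines carry the neu transgene, and in the study M1 was the line that did not form tumor in the mammary fat pad. Cell type and culture medium therefore cannot be told apart.

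The ligands Igf1 and Igf2 bind the receptor tyrosine kinase Igf1r, which signals through insulin receptor substrates, phosphoinositide 3-kinase and Akt. Igf2r, the mannose 6-phosphate receptor, takes up Igf2 for breakdown in the lysosome and does not carry a kinase. The binding proteins hold the ligands in the extracellular space, and proteases that cut them release the ligand. In the mammary gland Igfbp5 is best known from involution, when the gland regresses after lactation.

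A level here is the deposited log2 value of a probe set, on which a step of 1 is a doubling. Levels were compared between lines for the same probe set only, because probe sets differ in brightness. The median of all values was 6.78, and a probe set below it may lie near the background of the array, which is not known. Cdh1 and Epcam, which define epithelial cells, were at 6.70 and 5.77 in M1, 6.51 and 5.46 in M2, 12.15 and 12.70 in E1, and 12.31 and 12.76 in E2. Of 10 epithelial markers 5 were lower in the mesenchymal-like lines by limma, and of 8 mesenchymal markers 5 were higher, among them Zeb1 and Twist1. Among all 23410 probe sets tested, limma called 2.02% lower and 1.72% higher. The keratins Krt8 and Krt18 and the mesenchymal markers Vim and Fn1 were at 12.74 or more in every line. Vim was at 13.72 in M1 and 13.82 in M2, against 12.79 in E1 and 13.10 in E2, so that its lines did not overlap (limma adjusted p = 0.0896). Of 27 markers of myoepithelial, fibroblast, adipocyte, endothelial and immune cells, 0 were called by limma in either direction, with 3 at an unadjusted p under 0.05. Among all 23410 probe sets, 4203 were at that unadjusted level.

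Across the lines, 3 of the 10 members had lines at least 4-fold apart, and each had its own pattern. Igfbp5 was high in both epithelial lines, Igfbp7 was high in M1, and Igf2r was lowest in M1. The upstream stretches of these 3 genes are shown because they are the members whose levels differ most. Each is the 250 bases before the annotated start, from RefSeq on GRCm38.p6, read 5′ to 3′ on the strand of the gene. Igfbp5 lies on the minus strand at chr1:72874866-72875115, Igfbp7 on the minus strand at chr5:77408046-77408295, and Igf2r on the minus strand at chr17:12769707-12769956. Capitals mark the letters of the motifs found.
Igfbp5: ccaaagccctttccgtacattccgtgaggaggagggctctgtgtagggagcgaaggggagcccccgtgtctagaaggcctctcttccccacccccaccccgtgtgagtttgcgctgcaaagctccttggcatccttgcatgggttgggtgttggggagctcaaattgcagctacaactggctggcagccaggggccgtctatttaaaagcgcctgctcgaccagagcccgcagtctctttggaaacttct
Igfbp7: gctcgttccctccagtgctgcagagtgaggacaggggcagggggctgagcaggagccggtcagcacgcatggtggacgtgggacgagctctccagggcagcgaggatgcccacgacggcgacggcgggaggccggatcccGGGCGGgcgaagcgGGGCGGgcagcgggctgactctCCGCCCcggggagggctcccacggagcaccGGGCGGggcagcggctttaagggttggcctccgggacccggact
Igf2r: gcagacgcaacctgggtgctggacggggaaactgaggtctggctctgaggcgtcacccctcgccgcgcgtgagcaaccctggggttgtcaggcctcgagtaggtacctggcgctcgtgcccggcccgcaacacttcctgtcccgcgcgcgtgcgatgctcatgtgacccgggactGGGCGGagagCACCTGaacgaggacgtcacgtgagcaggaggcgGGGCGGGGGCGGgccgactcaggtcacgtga

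These stretches were searched on both strands for CACCTG, the E-box letters read by Snail and Zeb repressors, for GGGCGG, the GC box, for TATAAA and for GTAAACA, a forkhead motif. Igfbp7 held GGGCGG 4 times and Igf2r 3 times, a motif found in 32.7% of 32851 upstream stretches of the same length. Igf2r also held CACCTG, 65 bases before the start, as did 17.2% of all stretches. Igfbp5 held 0 of the 4 motifs in these letters. TATAAA stood in 12.4% of all stretches and GTAAACA in 3.17%, and neither stood in the 3 shown. Igfbp5 had 10 CG pairs, Igfbp7 had 26 and Igf2r had 27, where the median stretch had 6. All 10 members had an entry in the table, with 14 start regions in all. TATAAA was found before Igfbp4, 28 bases upstream of the start, and before Igfbp6. A match of letters is a description of the sequence, and no binding was measured here.

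**Figure D1:**
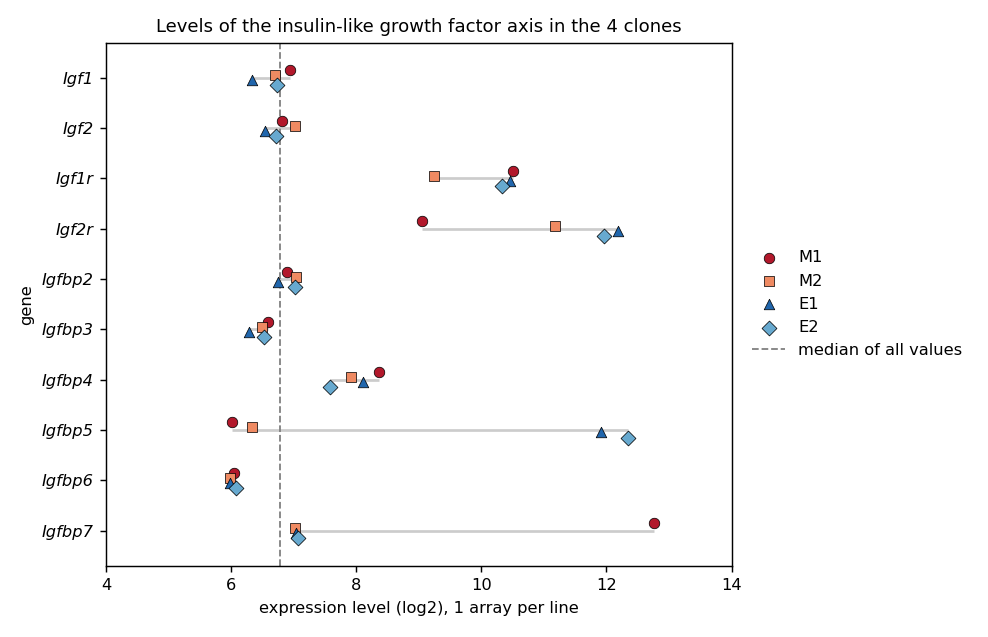
Expression level (log2) of each member in M1, M2, E1 and E2, with 1 array per line and the grey bar spanning the lines. Igfbp5 lies between 11.91 and 12.35 in the epithelial lines, Igfbp7 at 12.76 in M1, and 6 genes stay within 1 log2 unit across all lines.

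The first comparison asked whether the axis differed between mesenchymal-like and epithelial clones. Igfbp5, a secreted binding protein that also attaches to the extracellular matrix, had levels of 6.02 in M1 and 6.33 in M2, against 11.91 in E1 and 12.35 in E2. Both mesenchymal-like lines lay far below both epithelial lines, and below the median of all values. The mean was 6.17 ± 0.22 in the mesenchymal-like lines and 12.13 ± 0.31 in the epithelial lines (SD, n = 2 each), so Igfbp5 fell by 5.95 on the log2 scale (standard error 0.22, limma adjusted p = 0.00305). The listed values were 62.0-fold apart, and how far the transcripts were apart is not known, because the lower level may be background. By limma, 1 of 10 members was lower and 0 were higher, with 1 of 10 at an unadjusted p under 0.05. Over all 23410 probe sets, 2.02% were called lower and 1.72% higher, with 4203 at an unadjusted p under 0.05. Nothing in the labels says that a line was grown more than once, so these p-values measure the spread between clones. The call of Igfbp5 was lost without E1 (adjusted p = 0.0618) and without E2 (adjusted p = 0.0624), settings in which limma called 0 probe sets of the whole array.

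Igfbp5 lies 5590 bases from Igfbp2 on chromosome 1, and the pair differed in behaviour. Igfbp2 was at 6.90 in M1 and 7.04 in M2, against 6.75 in E1 and 7.02 in E2, with a difference of 0.09 (standard error 0.15, limma adjusted p = 0.860). The lines overlapped for Igfbp2 and stayed within 0.30 of each other. Over the 4 lines, and with each gene centred on its own mean, the genes whose levels were most like those of Igfbp5 were Esrp1, Sntb1 and Rab25. Esrp1, an epithelial splicing regulator, differed from it by a root mean square of 0.08, Sntb1 by 0.09 and Rab25, an epithelial trafficking GTPase, by 0.14. Likeness over 4 arrays is a description only.

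Igf2r had levels of 9.06 in M1 and 11.17 in M2, against 12.19 in E1 and 11.96 in E2. The order from low to high was M1, M2, E2 and E1, and E1 and E2 were 0.23 apart. Both mesenchymal-like lines were below both epithelial lines, but they lay 2.12 apart from each other. The mean was 10.11 ± 1.496 in the mesenchymal-like lines and 12.08 ± 0.16 in the epithelial lines (SD, n = 2 each), a difference of -1.96 (standard error 0.76, limma adjusted p = 0.313) that did not pass. The genes with the most similar pattern were Dock6, Chd7 and Mgat4a, at a root mean square difference of 0.04, 0.10 and 0.12 over the 4 lines.

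Igf1r, the signaling receptor, was at 10.51 in M1 and 9.25 in M2, against 10.46 in E1 and 10.33 in E2. M2 was the low line, 1.09 below the nearest of the others, and M1 lay above both epithelial lines, so that the types overlapped. The difference between types was -0.52 (standard error 0.46, limma adjusted p = 0.680). The insulin receptor Insr, which binds insulin and can pair with Igf1r in hybrid receptors, has a pair of probe sets. The first was at 10.15 in M1 and 10.16 in M2, against 10.77 in E1 and 11.02 in E2, and the second at 9.64 in M1 and 9.76 in M2, against 10.42 in E1 and 10.49 in E2. Both had lower levels in M1 and M2, with differences of -0.74 and -0.76 that did not pass (limma adjusted p = 0.0886 and 0.0601).

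The ligands showed little difference between lines. Igf1 was at 6.94 in M1 and 6.69 in M2, against 6.34 in E1 and 6.74 in E2. Igf2, an imprinted growth factor, was at 6.82 in M1 and 7.02 in M2, against 6.54 in E1 and 6.72 in E2. The lines of the types overlapped for Igf1, while for Igf2 both mesenchymal-like lines were above both epithelial lines by a small margin. The differences were 0.28 for Igf1 (standard error 0.20, limma adjusted p = 0.583) and 0.29 for Igf2 (standard error 0.14, limma adjusted p = 0.407). These levels lie near the median of all values, so the level of ligand transcript in the lines is not settled by these arrays.

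Of the remaining binding proteins, Igfbp4 was at 8.36 in M1 and 7.92 in M2, against 8.11 in E1 and 7.59 in E2. Igfbp4 inhibits ligand action and is a substrate of the protease Pappa, and its lines overlapped (difference 0.29, standard error 0.26, limma adjusted p = 0.691). Igfbp3, the main carrier of the ligands in serum, was at 6.60 in M1 and 6.49 in M2, against 6.28 in E1 and 6.53 in E2 (limma adjusted p = 0.727). Igfbp6, which binds Igf2 in preference to Igf1, was at 6.05 in M1 and 5.98 in M2, against 5.98 in E1 and 6.07 in E2 (limma adjusted p = 0.986). Igfbp3 and Igfbp6 lay below the median of all values in every line, so that a difference near background would not show. Igfbp1, the neighbour of Igfbp3 at 3539 bases on chromosome 11, was also even, at 6.36 in M1 and 6.69 in M2, against 6.26 in E1 and 6.43 in E2.

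Both mesenchymal-like lines were above both epithelial lines for 1 of 10 members and below for 2, where this held for 24.2% and 23.8% of all probe sets. The median difference of the members was 0.11, beside 0.00 for all probe sets tested.

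**Figure D2:**
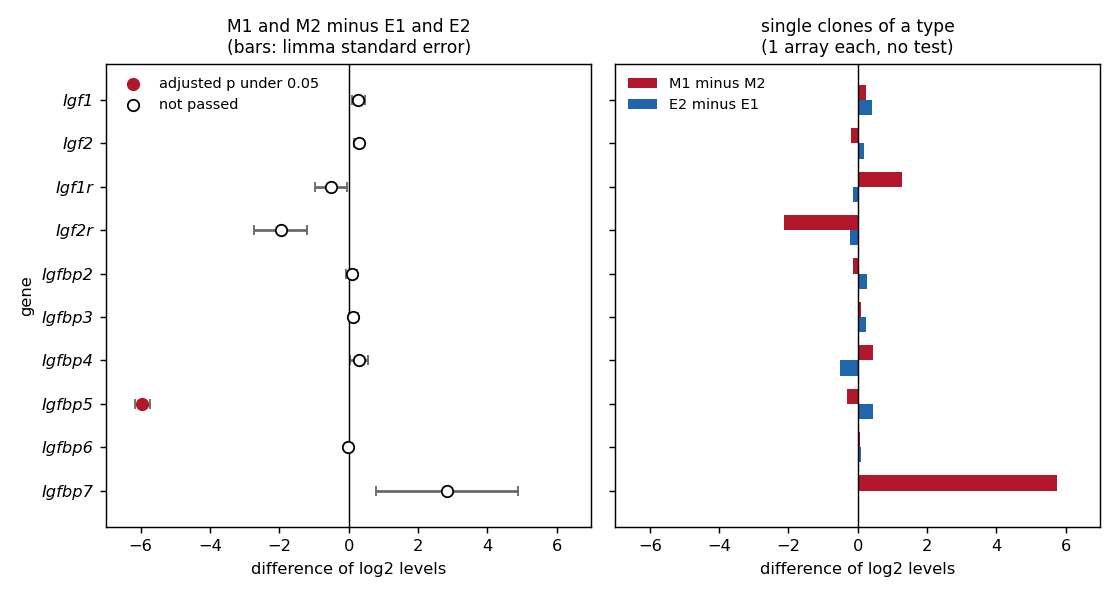
Left, difference of mean log2 levels of M1 and M2 minus E1 and E2 for each member, with limma standard errors as bars and the filled point passing an adjusted p under 0.05. Right, difference of log2 levels between single clones of a type, M1 minus M2 and E2 minus E1, 1 array each; Igfbp7 reaches 5.73 between M1 and M2 and no member reaches 1 between E2 and E1.

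A second comparison set M1 against the lines that formed tumor. Igfbp7, a secreted protein that binds insulin-like growth factors weakly and also insulin, was at 12.76 in M1, against 7.02 in M2, 7.04 in E1 and 7.06 in E2. The mean of the 3 lines that formed tumor was 7.04 ± 0.02 (SD, n = 3), and M1 was 5.70 above the nearest of them. The study named this gene for its high level in M1 on the same arrays, so its difference is given as a description and carries no test. The genes whose levels were most like those of Igfbp7 over the 4 lines were Ces2e, a carboxylesterase, Hspb1, a small heat shock protein, and Slc38a1, an amino acid transporter, with root mean square differences of 0.08, 0.17 and 0.23. Between the types the M1 level of Igfbp7 gave a wide error (difference 2.84, standard error 2.04, limma adjusted p = 0.597), and without M1 the difference was -0.03.

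Of the other 9 members, limma called 0 higher and 0 lower in M1, with 1 lower at an unadjusted p under 0.05, beside 1640 of all probe sets at that level. Over all probe sets 0.0854% were called higher and 0.00854% lower. The member with a low unadjusted p was Igf2r, at 9.06 in M1 and 11.78 ± 0.54 in M2, E1 and E2 (SD, n = 3), a difference of -2.72 (standard error 0.48, limma adjusted p = 0.439). Without M2 the difference of Igf2r in M1 from the epithelial lines was -3.02 and passed (limma adjusted p = 0.00565), but this sets M1 against lines of the other type and medium. M1 has 1 array and is assumed to vary like the other lines. This comparison shares all its arrays with that between the types, so the values are not independent.

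M1 and M2 grew in the same medium, and E1 and E2 shared theirs. Igfbp7 was left out of the count between M1 and M2, because the study named it for its level in M1, and it was 53.2-fold higher in M1 than in M2. Of the other 9 members, 1 was at least 2-fold higher in M1 and 1 was at least 2-fold lower, where 3.22% and 2.64% of all probe sets were. Igf1r was 2.40-fold higher in M1 than in M2, and Igf2r was 4.33-fold lower in M1. Between E2 and E1, 0 of 10 members were 2-fold apart in either direction, where 1.25% of all probe sets were higher in E2 and 0.987% lower. The largest difference of a member between E2 and E1 was -0.52, in Igfbp4. Each of these sets a single array against another and has no test.

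A line can also be set against all the others. Of the 9 members other than Igfbp7, 0 were at least 2-fold above every other line in M1, where 1.53% of all probe sets were. Igf2r was at least 2-fold below every other line in M1, as were 0.765%. Igf1r was at least 2-fold below every other line in M2, as were 0.842% of all probe sets, and 0 members were that far above the rest in M2, where 1.31% were. Between the mesenchymal-like clones the receptors thus differed in opposite directions, Igf1r being higher and Igf2r lower in M1 than in M2.

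Genes around the axis were read from 4 further lists. Of 21 other axis and related genes, 14 were measured. In the mesenchymal-like lines limma called 1 of them higher and 0 lower, beside 1.72% and 2.02% of all probe sets. The call was Htra1, a secreted serine protease with a domain like that of the binding proteins, which cleaves IGFBP5 in human cells. Htra1 was at 10.39 in M1 and 12.41 in M2, against 5.98 in E1 and 5.67 in E2, and it rose by 5.58 on the log2 scale (standard error 0.73, limma adjusted p = 0.0468). Its lines did not overlap between the types, with both mesenchymal-like lines above both epithelial lines. With the clone number as a replicate block limma passed 319 of all probe sets, beside 874 without the block. The call was lost with the clone number as a replicate block (adjusted p = 0.126), and it was lost without E1 (adjusted p = 0.273) or without E2 (adjusted p = 0.294). Igfals, the acid-labile subunit that joins Igfbp3 and Igfbp5 in serum complexes, was at 6.96 in M1 and 6.48 in M2, against 9.26 in E1 and 8.18 in E2 (difference -2.00, standard error 0.43, limma adjusted p = 0.122). Igf2bp1, an RNA-binding protein of the Igf2 transcript, was at 9.44 in M1, against 6.85 in M2, 6.79 in E1 and 6.38 in E2 on the brighter of its probe sets. M1 stood apart from the other lines there, with a difference of 2.76 (standard error 0.25, limma adjusted p = 0.175). Its dimmer probe set was at 5.55 in M1, against 4.97 in M2, 5.01 in E1 and 5.01 in E2. Its relative Igf2bp3, named after its values were seen, was at 8.65 in M1, against 6.95 in M2, 7.28 in E1 and 6.81 in E2 (limma adjusted p = 0.359).

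Proteases that cut the binding proteins, and the inhibitors of these proteases, formed the next list. Of 17 genes measured, limma called 1 higher and 0 lower in the mesenchymal-like lines, beside 1.72% and 2.02% of all probe sets. Their median difference was 0.61, beside 0.00 over all probe sets, and 13 of 19 probe sets had both mesenchymal-like lines above both epithelial lines, 68.4% of the list beside 24.2% of all. These 13 include every probe set of Pappa2, each below the median of all values in all 4 lines. Pappa, Stc1 and Plg, also among them, lay below that median in 3 lines, so such differences may lie near background. The gene called was Mmp19, a matrix metalloproteinase, at 10.93 in M1 and 11.39 in M2, against 7.18 in E1 and 6.10 in E2. It rose by 4.52 on the log2 scale (standard error 0.43, limma adjusted p = 0.0224), and this call was lost with the clone number as a replicate block (adjusted p = 0.103), without E1 (adjusted p = 0.0678) and without E2 (adjusted p = 0.0897). Mmp3, or stromelysin, which was named after its values were seen, was at 8.44 in M1 and 10.84 in M2, against 5.05 in E1 and 5.32 in E2. Its lines did not overlap between the types, with a difference of 4.46 (standard error 0.86, limma adjusted p = 0.0987) that did not pass. The urokinase Plau, also named after its values were seen, was at 7.33 in M1 and 9.13 in M2, against 5.71 in E1 and 5.68 in E2 (limma adjusted p = 0.162). M2 was the higher of the mesenchymal-like lines for Htra1, Mmp3 and Plau, but not throughout the protease list. Of its 17 genes measured, 2 were at least 2-fold higher in M1 than in M2, Plat and Adam12, and 6 were at least 2-fold lower. Among all probe sets the shares were 3.22% and 2.64%, with 1 array per line and no test. Pappa was at 6.94 in M1, against 6.10 in M2, 6.08 in E1 and 6.05 in E2. Of 6 fibroblast markers, limma called 0, and their median difference was -0.06. Their summed log2 level was 39.59 in M1 and 41.27 in M2, against 38.75 in E1 and 39.49 in E2. Both mesenchymal-like lines were above both epithelial lines for 1 of them, Pdgfra, at 8.71 in M1 and 10.20 in M2, against 7.78 in E1 and 7.83 in E2 (limma adjusted p = 0.239), and the lines overlapped for the other 5, which include the collagens Col1a1, Col1a2 and Col3a1. Of 5 adipocyte markers limma called 0, with a median difference of -0.13 and a summed log2 level of 30.48 in M1 and 34.11 in M2, against 28.94 in E1 and 29.52 in E2. Fabp4 was at 7.20 in M1 and 10.77 in M2, against 5.26 in E1 and 5.50 in E2 (limma adjusted p = 0.273), while Adipoq, Plin1 and Cidec had both mesenchymal-like lines slightly below both epithelial lines and Lep overlapped. The part of these cell types in the protease levels was not tested.

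**Figure D3:**
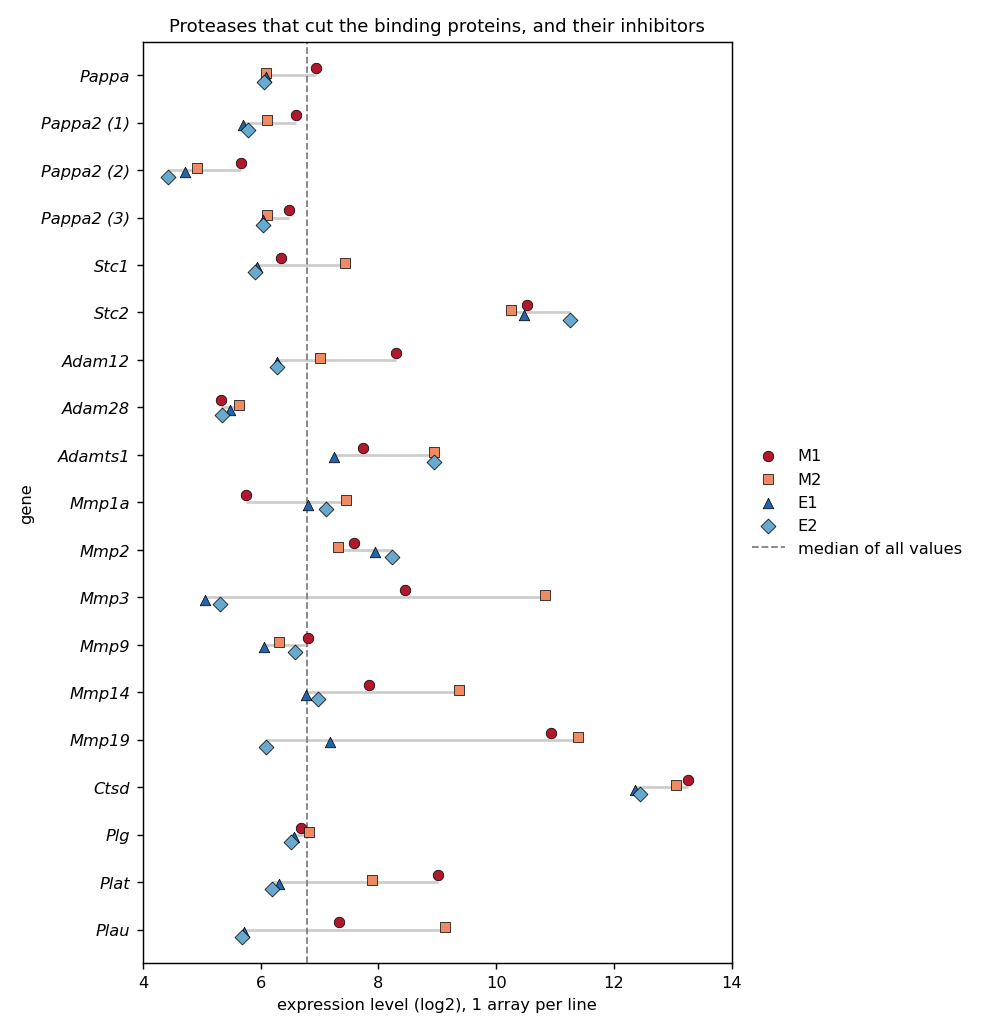
Expression level (log2) of 19 probe sets for proteases and protease inhibitors of the axis in M1, M2, E1 and E2, 1 array per line; numbers in brackets tell probe sets of a gene apart. Mmp19 is at 10.93 and 11.39 in M1 and M2, against 7.18 and 6.10 in E1 and E2, and 13 probe sets have both mesenchymal-like lines above both epithelial lines.

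Among 33 measured genes of insulin and IGF receptor signaling, limma called 3 lower and 0 higher in the mesenchymal-like lines, from 37 probe sets, beside 2.02% lower and 1.72% higher over all probe sets. The median difference was -0.13. Both mesenchymal-like lines were above both epithelial lines for 13 probe sets and below for 13, 35.1% of the list each, beside 24.2% and 23.8% of all probe sets. Irs1, the docking protein that Igf1r phosphorylates, was at 9.61 in M1 and 9.82 in M2, against 10.82 in E1 and 11.11 in E2 on its brighter probe set. It fell by 1.25 on the log2 scale (standard error 0.16, limma adjusted p = 0.0468). The dimmer probe set was at 5.55 in M1 and 5.18 in M2, against 6.52 in E1 and 6.81 in E2 (limma adjusted p = 0.0614). Pik3r3, a regulatory subunit of phosphoinositide 3-kinase, was at 7.22 in M1 and 6.08 in M2, against 10.03 in E1 and 9.80 in E2, and fell by 3.27 (standard error 0.43, limma adjusted p = 0.0461). Phlpp1, a phosphatase that acts on Akt, was at 9.43 in M1 and 9.39 in M2, against 10.68 in E1 and 10.78 in E2, and fell by 1.32 (standard error 0.11, limma adjusted p = 0.0163). None of these 3 genes overlapped between the types. With the clone number as a replicate block, limma passed 319 of all probe sets in place of 874. Under this block all 3 genes missed the threshold (limma adjusted p = 0.0846, 0.0837 and 0.0837), and each call was also lost without E1 and without E2. That of Irs1 was lost without M1 as well (adjusted p = 0.0578).

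Grb10, an imprinted inhibitor of insulin and IGF receptors, was at 5.95 in M1 and 9.08 in M2, against 5.80 in E1 and 5.85 in E2. M2 stood apart from the other 3 lines, by 3.13 from the nearest. Grb14, a relative that inhibits the insulin receptor, was at 9.03 in M1 and 7.97 in M2, against 6.64 in E1 and 6.43 in E2 (difference 1.96, standard error 0.40, limma adjusted p = 0.107). M2, the line with low Igf1r, was also the line with high Grb10, on 1 array, and a link between them was not tested. In this list 1 probe set was at least 2-fold above every other line in M2 and 2 were that far below. Among all probe sets the shares were 1.31% and 0.842%.

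**Figure D4:**
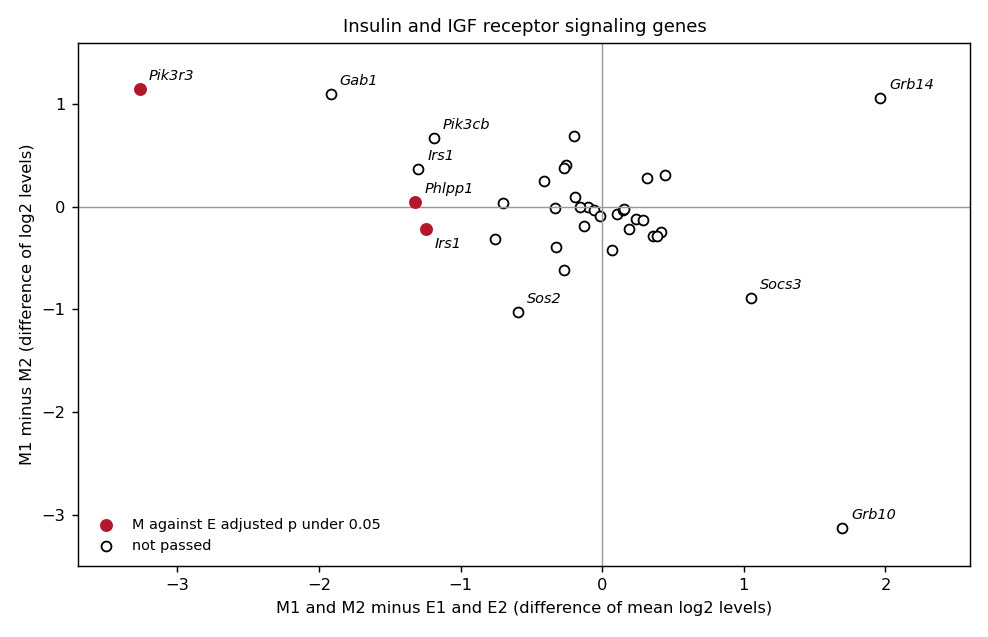
Each point is a probe set of the receptor signaling list, with the difference of mean log2 levels between M1 and M2 and E1 and E2 on the horizontal axis and the difference between M1 and M2 on the vertical axis. The filled points are Irs1, Pik3r3 and Phlpp1, and Grb10 lies lowest at -3.13.

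Foxo transcription factors leave the nucleus when insulin or IGF signaling is active, and their targets were read as a last list. Of 18 genes, all measured, limma called 1 higher and 1 lower in the mesenchymal-like lines, with a median difference of 0.00. The shares called among all probe sets were 1.72% higher and 2.02% lower. Bcl6, a transcriptional repressor, was at 11.14 in M1 and 10.57 in M2, against 7.96 in E1 and 8.27 in E2, and rose by 2.74 (standard error 0.25, limma adjusted p = 0.0203). Fbxo32, a ubiquitin ligase subunit best known from muscle wasting, was at 8.08 in M1 and 8.23 in M2, against 11.40 in E1 and 11.90 in E2, and fell by 3.49 (standard error 0.21, limma adjusted p = 0.00833). The lines did not overlap for either gene, and the directions were opposite. Both calls were lost without E1 and without E2, and that of Bcl6 with the clone number as a replicate block (adjusted p = 0.0991). For M1 against the lines that formed tumor, limma called 0 of the 91 probe sets of these 4 lists in either direction, with 13 at an unadjusted p under 0.05. Over all 23410 probe sets 0.0854% were called higher and 0.00854% lower, with 1640 at an unadjusted p under 0.05.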

How the data were processed

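RNA of the 4 clonal cell lines was hybridized to Affymetrix MoGene 1.0 ST arrays, 1 per line. The authors exported CEL files and, per the labels, used Partek, whose version is not given. Background correction and normalization are not given in the sources used here. The deposited values are log2 levels of 35556 probe sets, from 2.28 to 14.54, with array medians between 6.75 and 6.85, and were used without rescaling. The methods name a column kit for the RNA and the labels name Trizol. The platform annotation gave 21789 probe sets 1 gene symbol, 1621 several and 12146 none. Symbols of the 137 listed genes matched to a probe set were checked by gene identifier against RefSeq on GRCm38.p6, and 0 had changed. Some listed genes matched no named probe set by symbol and were not analysed here. The check did not cover them, so a probe set under another symbol could have been missed.

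limma 3.58.1 in R 4.3.3 (lmFit and eBayes, 2 residual degrees of freedom) tested M1 and M2 against E1 and E2, and M1 against M2, E1 and E2. P-values were adjusted by Benjamini and Hochberg over 23410 probe sets, with a threshold of 0.05. The fit was also run on simulated normal noise drawn from its own variances, with known changes added. Such a run cannot show how real clones vary. Single lines were compared by a difference of at least 2-fold. The number of arrays limits the precision. The members and lists were chosen with earlier results of these data known. The genes named are all members, genes of each list called or largest in difference, and for members with lines at least 4-fold apart the 3 genes with the smallest root mean square difference. Other genes given with values, such as Insr, Igfbp1, Pappa, Pdgfra and Fabp4, were chosen after their values were seen. Upstream sequences are those of RefSeq. The alternatives were quantile normalization, median centring, removal of dim probe sets, raising of low values to the median and inclusion of unnamed probe sets. Others were an intensity trend, a replicate block and leaving out each line. The block and the fits without a line left fewer than 2 residual degrees of freedom.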

Additional observations from a re-analysis of the deposited data

How the results depend on the processing

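The count of members called between the types was 1, and it was 0 when values were raised to the median of all values and between 0 and 3 when a line was left out. Over all probe sets the count was 874, and it was 223 with raised values, 319 with the clone number as a replicate block and between 0 and 1879 when a line was left out. It was 0 without E1 and 0 without E2, where limma gave 2579 and 2651 probe sets an unadjusted p under 0.05. With M1 left out Igf1r also passed, and with M2 left out Igf2r did, so that a lone mesenchymal-like line was set against E1 and E2. The count of 3 without M2 includes Igfbp7, whose level in M1 is the reason it was named, and nothing is read from it. The numbers are clone names, and the sample titles pair no lines by them. The deviations of M1 and E1 from their type means had a correlation of -0.04, which cannot exclude a pairing. Under the replicate block Igfbp5 still passed (limma adjusted p = 0.0342), and with raised values it did not (limma adjusted p = 0.0561). With raised values the calls of Htra1, Mmp19, Irs1, Pik3r3, Phlpp1, Bcl6 and Fbxo32 were lost too. With all probe sets of the file those of Htra1, Irs1 and Pik3r3 were lost (limma adjusted p = 0.0738, 0.0768 and 0.0731), that of Irs1 also under quantile normalization (0.0552) and with an intensity trend (0.0542), and that of Pik3r3 under median centring (0.0537).

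For M1 against the lines that formed tumor, the count over the 9 members tested was 0. It was 1 with raised values, the call being Igf1, whose other 3 lines had been set to the same floor, and between 0 and 2 when a line was left out. Over all probe sets the count was 22. It was 40 with each array centred on its median, 0 with brighter probe sets only (966 at an unadjusted p under 0.05 by limma), 293 with raised values, 11 with all probe sets of the file, 62 with an intensity trend and between 0 and 1879 when a line was left out. Leaving out M1 gives no value there.

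Directions reversed in members whose difference was small or rested on a single line. With each line left out in turn, the difference between the types ranged from -0.027 (without M1) to 5.708 for Igfbp7, from -1.149 to 0.112 (without M2) for Igf1r, from -0.049 (without E1) to 0.223 for Igfbp2, and from -0.055 to 0.038 (without E2) for Igfbp6, which was 0.026 without M2. For M1 against the other lines, it ranged from -0.047 (without E1) to 0.191 for Igf2 and from -0.133 to 0.015 (without M2) for Igfbp2, which was 0.003 without E2. With raised values Igf2 had -0.038 there. The cause of these changes was not tested. The numbers of members that M1 and M2, or E2 and E1, had 2-fold apart did not change under quantile normalization, median centring or raised values.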
